A study of Mus musculus with 20 samples.

Results

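Presupporting cells are the somatic cells of the early gonad that have left the coelomic epithelium (CE) and entered the supporting lineage, shortly before they become Sertoli cells in the testis or pregranulosa cells in the ovary. The cells described here are those that the deposited cell table names as presupporting and that come from E11.5 (E, embryonic day). They number 2693 of the 94705 cells of the series and of the 16670 cells of that stage, 959 of them XX and 1734 XY, and only 4 cells of other stages carry the same name. Each is set against the 2569 CE cells of the same 4 libraries. Embryos came from outbred CD-1 females mated with males heterozygous for a Tg(Nr5a1-GFP) transgene, and urogenital ridges, that is gonad and mesonephros together, were dissociated at E11.5, with no treatment and no sort described. There are 2 XX and 2 XY libraries, dated in their titles, and replicate 1 is the one with the earlier date in both sexes. The study describes them as biological replicates. How many embryos entered a library is not given in the sources used here, and single embryos cannot be told apart within one. The transgene was used to find the ridge at dissection, and both sexes carried it.

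In the mouse, the gonad arises as a bipotential ridge, and its supporting cells are the first to take a sex. In XY cells the Y-linked gene Sry turns on Sox9, and SOX9 with FGF9 and prostaglandin signaling sets up the Sertoli program, whereas in XX cells RSPO1 and WNT4 act through β-catenin toward the pregranulosa program. Before that choice is made, cells of both sexes are held to express genes of both programs at once. In XY gonads the study describes presupporting cells with Sry as apparently quiescent, and Sertoli cells as proliferating.

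Levels are given as unique molecular identifiers (UMIs) of a gene in every 1000000 UMIs summed over the cells of one type in one library (CPM). Presupporting cells gave sums of 11428384 to 29350896 UMIs from 382 to 1122 cells per library, and CE cells gave 6552728 to 25354605. Some libraries depart from their labels or from their replicate. In XX replicate 2, 22 of 382 presupporting cells (5.76%) carried at least 2 UMIs of Y-linked genes, and in XY replicate 2, 22 of 1122 (1.96%) carried at least 3 UMIs of Xist, whereas no presupporting cell of the other libraries did. Both replicate 1 libraries held more hemoglobin RNA in presupporting and CE cells alike, and XY replicate 1 held 66 cells named Sertoli, against 1 in XY replicate 2. Barcodes of 47 presupporting cells also occur in another library of the stage. Values of single genes are given with all cells and libraries unless stated otherwise. Of 54 named genes called between XY and XX presupporting cells, 53 kept the call without the cells of the other sex, 17 without XX replicate 1, 34 without XX replicate 2, 11 without XY replicate 1 and 12 without XY replicate 2, in fits where one sex keeps a single library. Only 6 kept it with each library left out in turn, among them Aard, Etv5, Kdm5d, Mmd2 and Rnase1.

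The cell type was first checked against its markers (Nr5a1, Sox9, Wnt4, Lhx9 and Cst8) over 10 cell types of E11.5. These types do not include the few cells of the stage named Sertoli (67), pregranulosa (6) or interstitial progenitors (29), so no rank was taken against those. Presupporting cells had the highest level of Nr5a1 and Cst8 in each library. The same held for Sox9 in both XY libraries and in the pooled sums, but not in XX, where early supporting-like cells (early SLCs, the progenitors of the rete) held 217 and 154 CPM of Sox9 and presupporting cells 73.9 and 74.6 CPM. In the pooled sums they came after the CE for Lhx9, and after early SLCs and the mesonephric mesenchyme for Wnt4. Since the authors named the types from clusters of these same counts, all values of presupporting cells against other types are descriptions without a test. By rank among the 10 types the name thus matches Nr5a1 and Cst8 in both sexes and Sox9 in XY alone, and Wnt4 and Lhx9 by themselves do not set these cells apart.

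Nr5a1 encodes the nuclear receptor that the gonad and the adrenal both require (chromosome 2, 38692656 to 38714542, minus strand, GRCm38). The XX libraries held 125 and 107 CPM in presupporting cells and 63.3 and 61.7 CPM in CE cells. The XY libraries held 214 and 156 CPM in presupporting cells and 62.1 and 49.5 CPM in CE cells. All 4 presupporting sums lay above all 4 CE sums, and both XY sums above both XX sums. The fold over the CE was 1.91 in XX and 3.402 in XY, and the difference between these folds was 0.83 ± 0.10 on the log2 scale (SE, edgeR with the library as a block, adjusted p = 0.000507). The direct difference between XY and XX presupporting cells, 0.69 ± 0.17 on the log2 scale, did not pass (adjusted p = 0.115) unless the library date was blocked (adjusted p = 0.00239). The GFP transgene driven by Nr5a1 sequences stood at 4111 and 3038 CPM in XX and 6154 and 4283 CPM in XY presupporting cells, against 1294 to 1757 CPM in the CE.

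Sox9, the transcription factor at the head of the Sertoli program (chromosome 11, 112782224 to 112787760, plus strand), was low and even in XX, at 73.9 and 74.6 CPM. In XY presupporting cells it reached 592 and 320 CPM. The CE held 43.3 to 56.0 CPM in all 4 libraries, so XX presupporting cells lay just above the CE and XY cells far above it. The XY cells exceeded the XX cells 6.21-fold (log2 2.64 ± 0.26, adjusted p = 0.00361). The XY replicates were far apart from each other, with replicate 1 the higher. The call was lost without XX replicate 1 (log2 2.63, adjusted p = 0.0971) and kept without any other library.

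Wnt4, the secreted signal needed for ovarian development (chromosome 4, 137277489 to 137299726, plus strand), ran the other way. It was 199 and 139 CPM in XX presupporting cells and 65.0 and 66.1 CPM in XY. The CE held 35.4 to 39.3 CPM in XX and 26.1 to 30.5 CPM in XY. Both sexes were thus above their CE, 4.66-fold in XX and 2.42-fold in XY, and XX cells stood 2.54-fold above XY cells (log2 -1.35 ± 0.18, adjusted p = 0.0108). Without XX replicate 2 the call for Wnt4 was kept, and without XX replicate 1, XY replicate 1 or XY replicate 2 the adjusted p was 0.0626, 0.157 and 0.115.

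Lhx9, a LIM homeobox factor needed for growth of the ridge (chromosome 1, 138825186 to 138848577, minus strand), was the only one of the 5 markers below the CE. It was 378 and 352 CPM in XX presupporting cells and 179 and 230 CPM in XY, against 394 to 448 CPM in the CE of all libraries. The level in XY cells was 1.99-fold below the CE and that in XX cells 1.15-fold below. The sexes differed by -0.82 ± 0.15 on the log2 scale (adjusted p = 0.0388), a call that Lhx9 lost whichever library was left out (adjusted p = 0.0971 to 0.361).

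Cst8, a cystatin-family gene (chromosome 2, 148798785 to 148805595, plus strand), was at 110, 124, 149 and 116 CPM in the 4 presupporting sums in the order XX replicates 1 and 2 and XY replicates 1 and 2, and at 10.9 to 18.01 CPM in the CE. The groups of the sexes overlap, and their difference was 0.20 ± 0.18 (adjusted p = 0.782). Cst9, its neighbor 36362 bases downstream and a gene known from the fetal testis, was 19.5 and 25.5 CPM in XX and 94.1 and 162 CPM in XY, 5.80-fold apart (adjusted p = 0.00574). The neighbors were thus both above the CE, and only Cst9 of the pair was called by sex, a call that was lost without XX replicate 1 (adjusted p = 0.141) or XX replicate 2 (adjusted p = 0.0525).

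**Figure D1:**
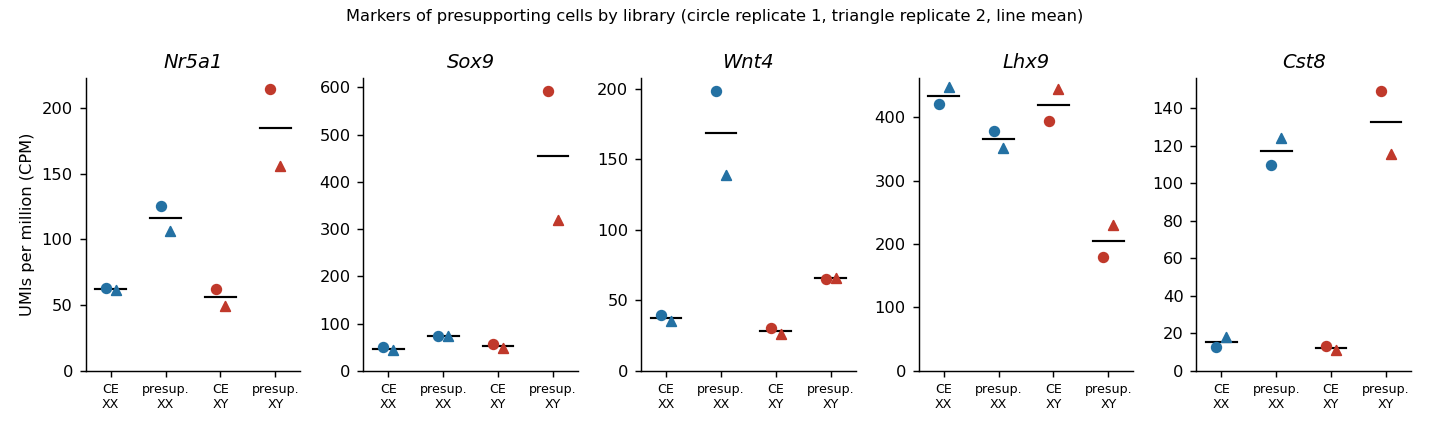
Level in CPM (linear axis from 0) of the 5 markers in CE and presupporting cells of each sex at E11.5, with circles for replicate 1, triangles for replicate 2 and lines for the mean of 2 libraries. Sox9 and Nr5a1 are highest in XY presupporting cells, Wnt4 in XX presupporting cells, Lhx9 in the CE, and Cst8 separates the 2 cell types in either sex.

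Upstream sequences are shown for this pair of cystatin genes, for Fgf9 on the XY side and for Rspo1 on the XX side, as examples of genes called by sex and of 1 that was not. They are the bases before the transcription start in RefSeq (GRCm38.p6, plus strand for all 4), ending before the first exon base of GENCODE M21. Capitals mark matches to the SOX letters ACAAAG or ACAATG or to the GATA letters AGATAA on either strand. The NR5A letters AAGGTCA and the TCF/LEF letters TCAAAG were searched as well and occur in none of these stretches, although AAGGTCA occurs 47 bases before the RefSeq start of Cst8, in bases that GENCODE counts as exon and that are not printed. Cst8 (chr2:148798589-148798784) lies upstream of the gene, as do Cst9 (chr2:148834897-148835146) and Rspo1 (chr4:124986180-124986429), whereas that of Fgf9 (chr14:58072436-58072685) lies inside the gene as GENCODE draws it, in no exon.
Cst8: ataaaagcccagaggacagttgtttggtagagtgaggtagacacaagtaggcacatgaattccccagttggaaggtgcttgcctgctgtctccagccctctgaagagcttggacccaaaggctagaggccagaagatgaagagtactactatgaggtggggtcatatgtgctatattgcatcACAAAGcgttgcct
Cst9: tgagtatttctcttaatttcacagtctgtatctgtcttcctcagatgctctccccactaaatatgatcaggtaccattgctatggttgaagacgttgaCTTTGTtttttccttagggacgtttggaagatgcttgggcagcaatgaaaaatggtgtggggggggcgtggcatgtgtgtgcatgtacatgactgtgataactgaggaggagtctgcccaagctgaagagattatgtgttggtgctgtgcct
Fgf9: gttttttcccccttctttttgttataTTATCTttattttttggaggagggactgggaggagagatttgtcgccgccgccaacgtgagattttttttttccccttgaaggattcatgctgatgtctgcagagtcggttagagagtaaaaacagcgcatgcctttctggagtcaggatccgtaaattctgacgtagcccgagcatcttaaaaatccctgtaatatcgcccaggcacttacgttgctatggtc
Rspo1: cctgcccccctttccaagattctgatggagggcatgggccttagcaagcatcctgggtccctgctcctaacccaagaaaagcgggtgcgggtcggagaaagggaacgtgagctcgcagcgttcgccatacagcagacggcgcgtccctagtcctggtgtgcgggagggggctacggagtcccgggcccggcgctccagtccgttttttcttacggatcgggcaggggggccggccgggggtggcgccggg
Both cystatin genes hold a SOX match, 68 and 152 bases before the RefSeq start, Fgf9 holds a GATA match and Rspo1 holds none. The 4 do not stand for their sex: among other members with an entry, Lhx9 and 1 of the 4 starts of Lef1, both higher in XX, hold 2 SOX matches each, that start of Lef1 also holds 2 TCF/LEF matches, and Wnt4 (higher in XX) and Tesc (higher in XY) hold none. These are matches of letters and not sites. Over windows of 250 bases, SOX letters occur in 28.2% of all 27025 genes with an entry, in 20.5% of the 11038 genes tested that have one, in 28.2% of those called higher in XY presupporting cells (61 of 216) and in 17.1% of those called higher in XX (7 of 41). GATA letters occur in 11.4%, 7.09%, 11.6% (25 of 216) and 0% (0 of 41, which allows up to 7.32%) of the same sets.

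Against the CE, 1201 of 17226 genes tested (6.97%) had a fitted level at least 2-fold higher in presupporting cells of both sexes with the same direction in all 4 libraries, and 764 (4.44%) one at least 2-fold lower. Within XX the counts were 1678 (9.74%) higher and 1084 (6.29%) lower, and within XY 1806 (10.48%) and 1257 (7.30%). Among the 10 genes beyond the fixed lists with the largest folds over the CE were Tgm3, a transglutaminase, and Aldh3b1, an aldehyde dehydrogenase. Tgm3 was 171, 108, 102 and 76.7 CPM in presupporting cells, in the order XX replicates 1 and 2 and XY replicates 1 and 2, and 1.85 to 3.97 CPM in the CE. Aldh3b1 was 45.9, 56.2, 70.7 and 76.4 CPM against 2.12 to 2.80 CPM. The same group held Pglyrp1, a peptidoglycan recognition protein, Vav3, a guanine nucleotide exchange factor, and Zc3hav1, an antiviral zinc finger protein, at log2 folds of 3.61 to 4.52 in either sex. No gene of these 10 differed between XX and XY presupporting cells by the test below.

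The genes furthest below the CE included Sparcl1, a matrix glycoprotein, at 26.6, 29.1, 24.6 and 34.8 CPM against 116 to 147 CPM. Gucy1a3, a subunit of soluble guanylate cyclase, was 32.7, 28.4, 14.9 and 22.6 CPM against 107 to 127 CPM. Hoxd10, a homeobox factor, Ngfr, a neurotrophin receptor, and Hsd11b2, which inactivates glucocorticoids, were 3.65- to 7.07-fold lower in either sex. The gap to the CE was wider in XY than in XX for Gucy1a3 and Ngfr, by 0.81 ± 0.13 and 0.78 ± 0.14 on the log2 scale (adjusted p = 0.0045 and 0.0112).

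Genes of the epithelium itself were lower in presupporting cells. Of 14 CE genes tested, 8 were at least 2-fold below the CE in XX and 10 in XY, and none was 2-fold above. Over all genes tested, 6.29% and 7.30% were at least 2-fold below. The median log2 fold of the 14 was -1.14 in XX and -1.67 in XY, against 0.00217 and 0.00566 over all genes tested. Upk3b, a uroplakin of the mesothelium, was 18.2, 34.9, 3.51 and 21.9 CPM against 73.5 to 140 CPM in the CE. It was lowest in XY replicate 1, and the sexes overlap. Aldh1a2, which makes retinoic acid, was 39.1 to 70.6 CPM against 142 to 192 CPM. Podxl, a sialomucin, and Krt8, a keratin gene, were above the CE instead. Podxl was 186 and 163 CPM in XX presupporting cells against 93.4 and 106 CPM in their CE, and 78.9 and 86.2 CPM in XY cells (XX above XY, log2 -1.06 ± 0.14, adjusted p = 0.0104). Krt8 was 62.1 to 122 CPM against 36.0 to 59.2 CPM, and the sexes overlap. Podxl was the only CE gene called by sex, and with the date blocked Krt7, Krt18, Krt19, Bnc1 and Aldh1a2 were called higher in XX as well.

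Factors of the bipotential gonad were close to the CE as a group, at a median log2 fold of 0.05 in XX and -0.01 in XY. Of 15 tested, 2 were at least 2-fold above the CE in all 4 libraries, against 6.97% of all genes tested. Gadd45g, a stress-response gene needed for timely Sry expression, was 585, 561, 653 and 519 CPM against 82.8 to 106 CPM. The other was Nr0b1, a nuclear receptor that restrains NR5A1, at 51.8, 87.1, 93.9 and 99.1 CPM against 10.49 to 21.4 CPM in the CE. Gata4 was 224 to 268 CPM against 107 to 125 CPM, and Wt1 339 to 482 CPM against 288 to 366 CPM, while Cbx2, a Polycomb subunit needed for Sry expression, was below it at 13.46 to 18.3 CPM against 25.6 to 37.8 CPM. Of this list only Lhx9 was called between XX and XY presupporting cells, and Nr5a1 and Emx2 with the date blocked. Emx2, a homeobox factor of the urogenital ridge, was 150 and 112 CPM in XX and 99.2 and 79.4 CPM in XY (log2 -0.54 ± 0.18, adjusted p = 0.242, and 0.00599 with the date blocked).

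XY presupporting cells were then compared with XX presupporting cells, which asks how far the sexes had parted by E11.5. The test called 295 genes higher in XY (1.71% of 17226) and 57 higher in XX (0.331%), with a call meaning an adjusted p under 0.05 and a change of at least 0.361 on the log2 scale. In the CE of the same libraries it called 2 genes higher in XY (0.0116%) and none in XX, with 524 genes at an unadjusted p below 0.05 there against 2108 in presupporting cells. The 2 were the Y-linked Kdm5d and Etv4, which were named after their values were seen. In all 295 and all 57 the sums of the sexes do not overlap, as is true of 17% of all genes with both XY sums above and 22% with both XX sums above. The median log2 difference was 1.73 among the 295 genes and -0.93 among the 57, and -0.02 over all genes. With the library date blocked the test called 872 and 462 genes (5.06% and 2.68%), which held all 295 and all 57. Counts of called genes are without this block unless stated.

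These counts rest on 2 libraries per sex, and their spread was estimated with the CE sums of the same libraries as well. With the 4 presupporting sums alone, 198 genes were called higher in XY and 16 higher in XX. With 1 library left out, its sex keeps a single library, whose spread is assumed to be that of the other sex, and the test has less power, so a lost call does not by itself show that it rests on that library. The counts were then 50 and 3 genes without XX replicate 1, 155 and 38 without XX replicate 2, 37 and 1 without XY replicate 1 and 50 and 1 without XY replicate 2, while all 295 genes kept their sign in each case, and at least 56 of the 57 did. In all of these genes the sums of the sexes do not overlap, so a sign could hardly turn, and the kept signs add no support. Without cells that carried transcripts of the other sex the counts were 341 and 78, and with the Sertoli and pregranulosa cells of E11.5 added to the sums 328 and 75.

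The labels were checked by sex-linked genes. Kdm5d, which is Y-linked, had no UMI in XX presupporting cells and 16.51 and 13.6 CPM in XY. Ddx3y was 0.115 and 4.99 CPM in XX against 97.2 and 109 CPM in XY, the 4.99 CPM being XX replicate 2. Xist, the RNA that silences one X chromosome, was 1375 and 932 CPM in XX against 1.24 and 18.1 CPM in XY. All XX sums lay above all XY sums, yet the call failed with all cells (adjusted p = 0.0858) and passed without cells of the other sex (adjusted p = 5.56e-05) or with the date blocked (adjusted p = 0.0054). Sry itself was at the edge of detection in the counts used here, with 0, 0, 16 and 14 UMIs in presupporting cells and 0, 0, 1 and 1 in CE cells, and was not tested. The study counted reads of its second exon in a separate step, since default mapping discards them. Whether the counts used here include those reads was not checked, so they give no measure of the level of Sry.

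Sertoli and testis genes were widely higher in XY cells. Of 24 tested, 15 were called higher in XY and none in XX, against 1.71% and 0.331% of all genes. With the date blocked 21 and none were called, against 5.06% and 2.68%. The median log2 difference of the 24 was 2.59 against -0.02 for all genes. The list rests on known Sertoli genes, several of which the study names in these samples, so its direction is not independent evidence. Fgf9, the growth factor that sustains Sox9, was 2.99 and 4.29 CPM in XX and 59.3 and 26.4 CPM in XY, while the CE held 3.79 to 4.27 CPM in all libraries. The XX cells were thus at the level of the CE, and XY cells 12.03-fold above XX (log2 3.59 ± 0.39, adjusted p = 0.00538). Ptgds, a prostaglandin D synthase, was 1.09 and 6.13 CPM in XX and 42.6 and 56.7 CPM in XY (adjusted p = 0.0279, and 0.00864 without cells of the other sex). The call for Ptgds was lost without XY replicate 1 or 2 (adjusted p = 0.173 and 0.178), and that for Fgf9 without XX replicate 1 or 2 (adjusted p = 0.135 and 0.0507).

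Aard, a gene of unknown function that marks Sertoli cells, was 2.76 and 3.06 CPM in XX and 29.2 and 25.7 CPM in XY. This was among the most even contrasts of the list, with a log2 difference of 3.26 ± 0.18 (adjusted p = 0.000722). Tesc, a calcium-binding protein, was 0.977 and 3.94 CPM against 43.0 and 48.1 CPM, and Mmd2, a membrane protein gene of fetal Sertoli cells, 0.575 and 2.28 CPM against 35.8 and 34.3 CPM. In both, XX replicate 2 was higher than XX replicate 1, and the adjusted p was 0.0104 and 0.00252. Without cells of the other sex their log2 differences went from 4.33 to 4.87 and from 4.75 to 5.22. Cbln4, Col9a3, Mro, Nedd9, Hsd17b3, Etd, Gstm6 and Sox10 were also called. Gstm6 belongs to a family of near-identical genes and is uncertain, and Etd had no UMI in XX and was at least 74.8-fold higher in XY, against a floor of 3 counts over both XX sums. Sox10, a relative of Sox9 with a role in neural crest, had 0 and 2 UMIs in XX and 120 and 139 in XY.

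Amh, the Sertoli hormone that acts on the Müllerian duct, and Dhh, the hedgehog signal from Sertoli to Leydig cells, did not pass. Amh was 0.517 and 4.73 CPM in XX and 15.3 and 31.2 CPM in XY (log2 3.29 ± 0.74, adjusted p = 0.0786). Of its 63 UMIs in XX, 54 came from XX replicate 2, and without cells of the other sex the adjusted p was 0.0332. Dhh was 0.172 and 3.06 CPM against 13.9 and 18.2 CPM (adjusted p = 0.0756, and 0.0253 without those cells). Both passed with the date blocked (adjusted p = 0.000582 and 0.00231), as did Sox8, Sox13, Defb19 and Vnn1 (adjusted p = 0.0414, 0.0104, 0.0326 and 0.00102).

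Part of the Sertoli list was above the CE in XX cells too. At least 2-fold above the CE stood 15 of the 24 genes in XX and 21 in XY, 14 of them in both. Over all genes tested the shares were 9.74%, 10.48% and 6.97%. Dmrt1, the DM-domain factor of the postnatal testis, was 33.7, 39.0, 59.0 and 51.1 CPM against 6.04 to 11.1 CPM in the CE (XY over XX log2 0.62 ± 0.25, adjusted p = 0.354). Inhbb, a subunit of activin, was 56.4, 46.5, 55.6 and 45.6 CPM against 8.59 to 12.3 CPM, and the sexes overlap.

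In the FGF pathway, 3 of 9 genes were higher in XY and none in XX, against 1.71% and 0.331% of all genes tested. With the date blocked 5 and 1 were called, against 5.06% and 2.68%. The 3 were Fgf9 and the ETS factors Etv4 and Etv5, which are known to be induced by FGF signaling. Etv5 was 6.95 and 8.93 CPM in XX and 60.8 and 43.2 CPM in XY presupporting cells, and 14.5, 14.7, 27.9 and 23.4 CPM in the CE. It was below the CE in XX cells and above it in XY cells (difference of the log2 folds 1.91 ± 0.17, adjusted p = 6.11e-05). Etv4 was 2.18 and 1.93 CPM against 9.75 and 9.74 CPM, but the CE held 4.88 and 4.58 CPM in XX and 24.0 and 18.3 CPM in XY. Its sex difference was therefore alike in both cell types, 2.25 ± 0.20 in presupporting cells and 2.16 ± 0.20 in the CE (adjusted p = 0.0345), and the difference of the folds was 0.12 ± 0.27 (adjusted p = 0.928). The receptors Fgfr1 and Fgfr2 and the feedback inhibitors Dusp6, Spry1, Spry2 and Spry4 did not pass without the block. With the date blocked, Spry4 (log2 2.096, adjusted p = 0.000324) and Dusp6 (log2 0.72, adjusted p = 0.00163) were called higher in XY and Fgfr2 (log2 -0.74, adjusted p = 0.0184) in XX, and Fgfr1, Spry1 and Spry2 did not pass.

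Ovarian genes split. Of 14 pregranulosa and ovary genes, 4 were higher in XX and 2 in XY, against 0.331% and 1.71% of all genes. Their median log2 difference was -0.68, against -0.02 for all genes. Fst, the activin antagonist follistatin, was 89.1 and 35.9 CPM in XX and 11.51 and 9.16 CPM in XY (log2 -2.59 ± 0.40, adjusted p = 0.0191). XX replicate 1 was the highest by far, and the groups do not overlap. The call for Fst was lost without XY replicate 1 or 2 (adjusted p = 0.184 and 0.187). Rspo1, the secreted enhancer of WNT signaling, was 49.0 and 43.0 CPM against 17.9 and 24.0 CPM (adjusted p = 0.0456). Lef1, a nuclear effector of WNT signaling, was 71.7 and 59.4 CPM against 26.1 and 30.9 CPM (adjusted p = 0.00978). Its XX level was near that of the CE (64.7 to 67.4 CPM in XX), and it was the XY cells that were lower than their CE (49.5 and 57.3 CPM).

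Among the exceptions was Lgr5, a receptor for R-spondins. It was 7.99 and 3.76 CPM against 23.6 and 18.2 CPM (adjusted p = 0.0388). It is a gene of the later ovary that stood higher in XY cells at this stage. The call for Lgr5 was lost whichever library was left out, at log2 differences of 1.39 to 2.49. Irx3, Bmp2, Runx1, Kitl, Msx1 and Foxl2 did not pass, and with the date blocked Irx3 did (log2 -1.16, adjusted p = 0.0123). Most of the list was above the CE in either sex, 13 of 14 genes at least 2-fold in XX and 12 in XY. Over all genes tested the shares were 9.74% and 10.48%. Kitl, the ligand of KIT on germ cells, was 292, 191, 240 and 216 CPM against 43.7 to 51.0 CPM, and Runx1, a factor that maintains fetal granulosa cells, 149, 111, 109 and 94.3 CPM against 12.8 to 23.5 CPM. Foxl2, the granulosa factor, was 3.51, 0.788, 0.845 and 0.443 CPM, high in XX replicate 1 only.

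Over the whole WNT list of 16 genes, 3 were higher in XX (Wnt4, Rspo1 and Lef1) and 1 in XY (Lgr5), against 0.331% and 1.71% of all genes. The targets and inhibitors Axin2, Nkd1, Sp5, Znrf3, Rnf43 and Notum did not pass. Axin2 was 23.6 and 15.8 CPM in XX and 12.3 and 9.71 CPM in XY presupporting cells, and 19.7 to 37.2 CPM in the CE, with an adjusted p of 0.235. With the date blocked Axin2 and Sp5 were called higher in XX (adjusted p = 0.00386 and 0.0455). None of 13 BMP, 9 NOTCH or 6 Hedgehog genes tested was called in either direction without the block. At shares of 1.71% and 0.331% over all genes, lists this short can hold no call. With the block Bmp4 (log2 -0.43, adjusted p = 0.0268) and Msx2 (log2 -0.97, adjusted p = 0.014) were called higher in XX and Dhh in XY. Id1 and Id2, targets of BMP signaling, were 58.6 to 67.1 CPM and 159 to 233 CPM, against 94.1 to 148 CPM and 520 to 635 CPM in the CE. They do not stand for the BMP list. Of its 13 genes, 2 were at least 2-fold above the CE in both sexes and 2 at least 2-fold below, against 6.97% and 4.44% of all genes. The median log2 fold of the 13 was -0.45 in XX and -0.53 in XY.

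Beyond the lists, the 10 genes ranked first toward XY by fitted fold had no UMI in XX presupporting cells. A fitted fold over a group at 0 is not a measured size, so the rank does not make them the largest differences, and lower bounds are given instead. Rnase1, a secreted ribonuclease, was 12.4 and 11.1 CPM in XY, at least 111-fold above the floor of XX. Wfdc18, a gene of the whey acidic protein family, was 7.28 and 9.95 CPM (at least 86.8-fold), F2rl2, a protease-activated receptor, 8.97 and 5.01 CPM (at least 61.2-fold) and Gm15137 5.53 and 5.79 CPM (at least 54.8-fold). Hcrtr1, an orexin receptor, Ly6c1, Frmpd1os, AC113508.3, Fam83f and Defa24, a member of a family of near-identical defensins and therefore uncertain, were at least 21.9- to 28.6-fold higher, bounds that lie below the 40.7-fold of Mt3, a gene beyond the lists with UMIs in all 4 sums. Each of the 10 was at or below 0.267 CPM in the CE of every library.

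Toward XX, the first by fitted fold were AC168059.1, with 14 and 12 UMIs in XX and none in XY (at least 13.4-fold), and Tsix, which overlaps Xist on the other strand. Tsix cannot be told from Xist reads unless strand was used in counting, which is not stated. Sprr2d, a small proline-rich protein gene, was 47.2 and 39.3 CPM in XX and 9.29 and 13.9 CPM in XY, against 0.2 to 2.44 CPM in the CE (adjusted p = 0.0406). Siglecg, a sialic acid-binding lectin, was 84.3 and 58.1 CPM against 28.5 and 22.5 CPM (adjusted p = 0.0192), and Nos1, the neuronal nitric oxide synthase, 10.3 and 7.35 CPM against 2.47 and 3.51 CPM (adjusted p = 0.0458). These 3 were far above the CE in both sexes, by log2 3.15 to 4.70, and differed by sex on top of that. Klhl5, Csgalnact1, C1qtnf2, Gpr55 and Gm42449 made up the 10.

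The fold of presupporting cells over the CE was itself compared between the sexes, with the library as a block. It was larger in XY for 297 genes (1.72%) and larger in XX for 130 (0.755%), and 156 of the former and 29 of the latter were also called between XY and XX presupporting cells. Of the 5 markers, Sox9 (log2 2.41 ± 0.18, adjusted p = 1.44e-05) and Nr5a1 had the larger fold in XY. Wnt4 (log2 -0.95 ± 0.13, adjusted p = 0.00145) and Lhx9 (log2 -0.79 ± 0.09, adjusted p = 0.000281) had it in XX, and Cst8 did not pass (0.48 ± 0.14, adjusted p = 0.107). Without the library block 3 and 0 genes were called (494 and 261 at an unadjusted p below 0.05), and DESeq2 called 165 and 35.

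Beyond the lists, Mt3, a metallothionein, had the largest difference of the fitted folds toward XY among called genes. It was 0.632 and 1.40 CPM in XX and 30.8 and 46.7 CPM in XY presupporting cells, and 0.424 to 0.986 CPM in the CE (log2 4.41 ± 0.75, adjusted p = 0.0067). Gdnf, a neurotrophic factor that Sertoli cells make for germ cells, was 0.805 and 0.875 CPM against 10.7 and 7.73 CPM, with 0.267 to 1.37 CPM in the CE (log2 4.02 ± 0.77, adjusted p = 0.0141). Ppargc1a, a coactivator of mitochondrial genes, was 1.15 and 2.89 CPM against 22.9 and 20.5 CPM (log2 3.66 ± 0.42, adjusted p = 0.000387). In all 3 the XX cells were near the level of the CE and the XY cells stood apart from the other sums. Nkd2 and Lrp4, which act on WNT signaling, had folds larger in XY by log2 2.79 ± 0.35 and 2.97 ± 0.36 (adjusted p = 0.000665 and 0.000507).

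Toward XX, the largest value, that of AC113508.1 (log2 -6.51), rests on no UMI in the XX CE. Alpk2 and Isl1 had differences of log2 -2.92 ± 0.42 and -2.33 ± 0.54 at 0.443 to 2.59 CPM in presupporting cells. Among better counted genes, Utf1, a chromatin factor of pluripotent cells, was 61.6 and 61.3 CPM in XX and 36.4 and 28.9 CPM in XY, against 2.75 to 4.07 CPM in the CE (log2 -1.39 ± 0.22, adjusted p = 0.00436). Hist2h2aa1, which has a near-identical copy, is uncertain.

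**Figure D2:**
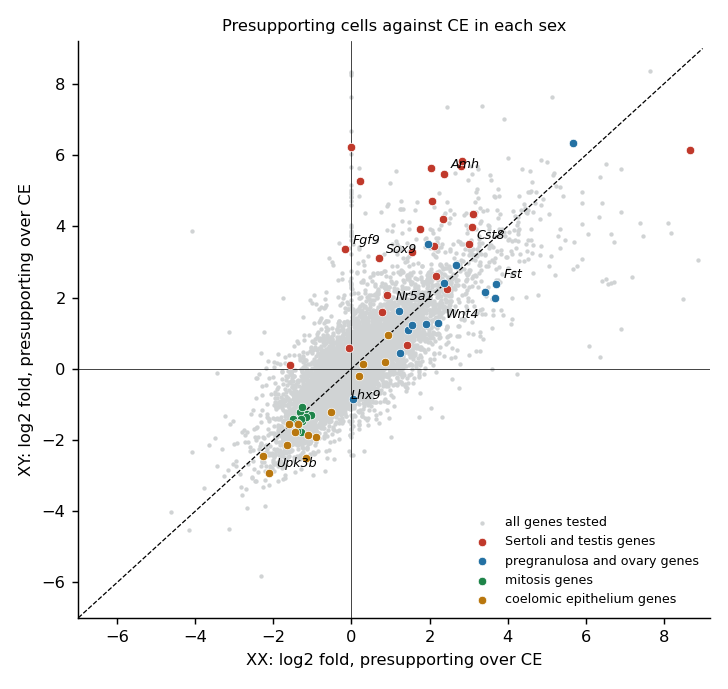
Log2 fold of presupporting cells over CE in XX (horizontal) and XY (vertical) for all 17226 genes tested, fitted over 2 libraries each, with 4 gene lists in color and the line of equal folds dashed. Mitosis genes and most CE genes sit below 0 on both axes, most Sertoli genes lie above the line, and most ovary genes lie to the right of 0 in both sexes. Genes with no UMI in either cell type of XX lie on the vertical line at 0, and Ptgds, with no UMI in the XX CE, lies far right.

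The same contrast 1 day later was read in independent libraries, 1808 Sertoli cells of the 2 E12.5 XY libraries against 3476 pregranulosa cells of the 2 XX libraries. Of 17596 genes tested there, 2101 (11.9%) were higher in Sertoli and 2129 (12.1%) in pregranulosa cells. Of the 295 genes higher in XY presupporting cells, 290 were tested at E12.5, and 243 (83.8%) were higher in Sertoli cells. Of the 57 genes higher in XX, 56 were tested, and 45 (80.4%) were higher in pregranulosa cells and none in Sertoli cells. Over all genes tested at both stages the shares were 11.3% and 11.9%. The E11.5 genes made up 11.6% of the Sertoli list and 2.11% of the pregranulosa list. Sums of E11.5 and E12.5 share no library, but the cell types at E12.5 were also named from clusters.

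All 24 Sertoli genes tested were called higher in Sertoli cells at E12.5 and 12 of the 14 ovary genes in pregranulosa cells. Over all genes tested there the shares were 11.9% and 12.1%. The authors named these cell types with known markers, so the counts for known Sertoli and ovary genes are not independent evidence. Amh was 964 and 410 CPM in Sertoli cells and 0.432 and 1.14 CPM in pregranulosa cells, and Fst 249 and 253 CPM in pregranulosa against 1.25 and 1.24 CPM in Sertoli cells. The gap in Sox9 was log2 2.64 at E11.5 and 4.32 at E12.5, and that in Wnt4 -1.35 and -4.02. Inhbb, even between the sexes at E11.5, was 154 and 168 CPM in Sertoli against 36.6 and 33.1 CPM in pregranulosa cells (adjusted p = 0.00139).

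A few genes went the other way at E12.5, since 4 of the 290 genes higher in XY presupporting cells (1.38%) were higher in pregranulosa cells. Among them were Cyp27a1, a sterol hydroxylase, and Il13ra2, a decoy receptor for interleukins, named after their values were seen. Cyp27a1 was 1.61 and 1.66 CPM in XX and 4.75 and 4.40 CPM in XY presupporting cells, and its log2 difference at E12.5 was -2.62 (adjusted p = 0.0107). Lgr5 did not pass at E12.5, at 47.6 to 58.0 CPM in all 4 sums.

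**Figure D3:**
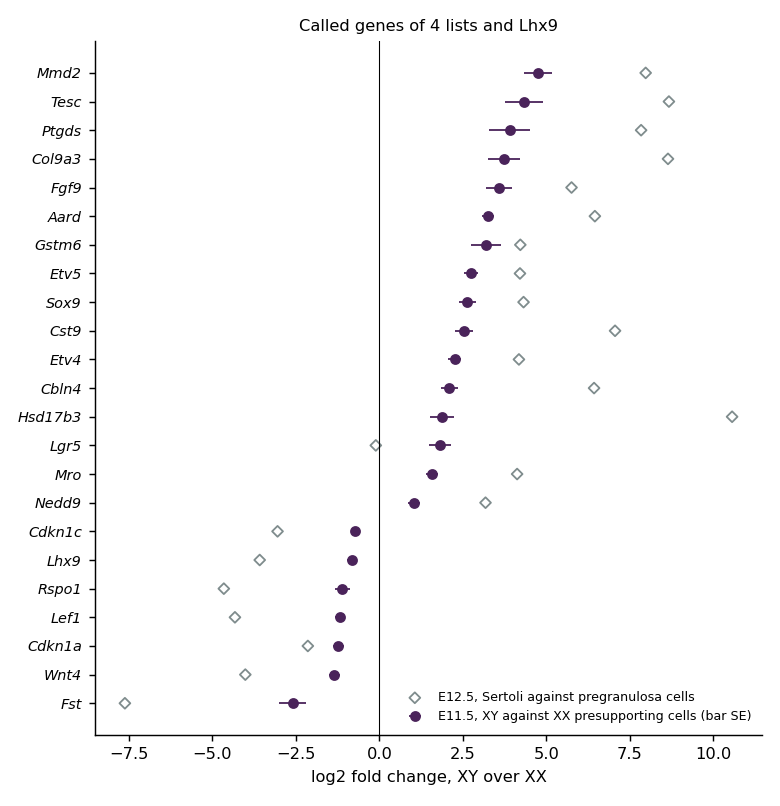
Log2 fold change of XY over XX for 23 called genes (from the Sertoli, ovary, FGF and cycle inhibitor lists, and Lhx9), with filled circles and SE bars for presupporting cells at E11.5 (2 against 2 libraries) and open diamonds for Sertoli against pregranulosa cells at E12.5. The sign is the same at both stages for 22 of the 23, the exception being Lgr5. Etd and Sox10, with 0 to 2 UMIs in XX, are not drawn.

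Single cells were then asked whether they held Sox9 and Wnt4 together. A UMI of both was found in 57.4% and 53.1% of XX presupporting cells and in 40.5% and 40.2% of XY cells (mean 47.8% ± 8.77, SD, n = 4). The share depends on depth, the median presupporting cell having 22380.5 to 24900 UMIs per library. After each cell was thinned to 5000 UMIs (which left out 7 cells of XY replicate 1) it was 14.9% and 11.8% for the XX libraries, 12.6% and 11.4% for the XY libraries, and the 95% exact intervals of the libraries, from 8.72 to 18.1%, overlap. If the genes were detected independently within a library, 13.2%, 11.1%, 15.4% and 13.7% would hold both. At this depth the product lies outside the interval of XY replicate 2 alone (9.61 to 13.4%). After thinning to 10000 UMIs the observed shares were 32.8%, 23.4%, 22.8% and 20.6% and the products 31.4%, 23.9%, 26.7% and 23.9%, and the products lie outside the intervals of both XY libraries (19.5 to 26.4% and 18.2 to 23.1%). Without thinning the products were 56.0%, 51.6%, 42.5% and 41.5% and lie inside the intervals of all 4 libraries (36.6 to 44.5% and 37.3 to 43.1% in XY). A product comes from the same cells as the observed share, so these intervals do not measure the spread of the gap between them. In both XY libraries the observed share was below its product at each depth, and the gap was not tested. In XX the product lay inside the interval at each depth. After thinning to 5000 UMIs, CE cells held both in 2.66 to 3.63%, germ cells, which should lack them, in 0 to 0.4%, and early SLCs in 30.7 to 50.6%.

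The distribution within a library was broad, above all for Sox9 in XY. The median XY cell had 10 Sox9 UMIs in replicate 1 and 5 in replicate 2, with upper deciles of 36 and 22, while 14.2% and 21.8% of these cells had none. In XX the median was 1 UMI in both libraries. For Wnt4 the medians were 4 and 3 for the XX libraries against 0 and 1 for the XY libraries. After thinning, 43.6% and 25.8% of XY cells but 2.43% and 2.88% of XX cells had at least 3 Sox9 UMIs.

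**Figure D4:**
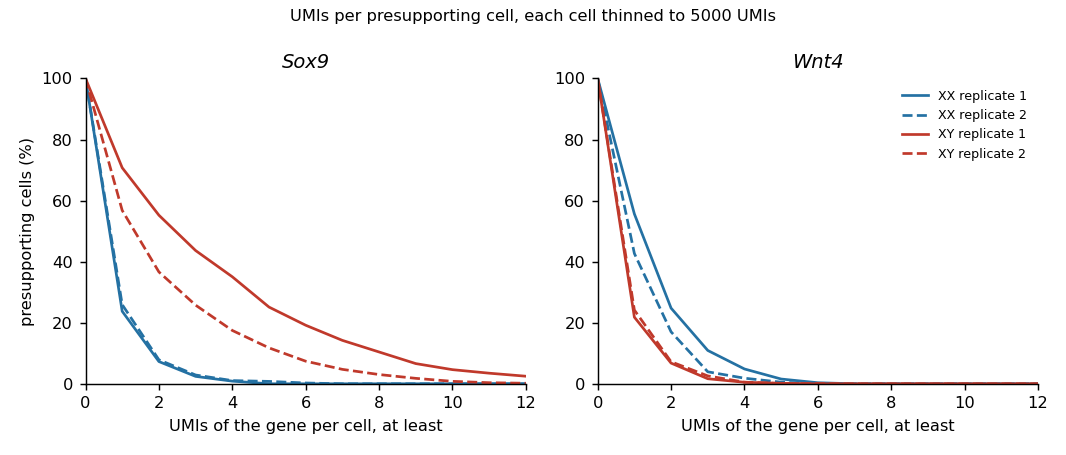
Share of presupporting cells (percent, vertical) with at least the given number of UMIs (horizontal) of Sox9 and Wnt4 in each library at E11.5, after thinning of every cell to 5000 UMIs. For Sox9 the XY curves run above the XX curves and XY replicate 1 above XY replicate 2, and for Wnt4 the order of the sexes is reversed over a narrower range.

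Fewer presupporting cells than CE cells were called in S or G2M phase. The authors' calls rest on scores of cycle genes, so levels of such genes are not separate evidence. A cell called in G1 is not thereby shown to be out of cycle. By these calls, 17.5%, 26.2%, 14.5% and 19.0% of presupporting cells were in S or G2M (mean 19.3% ± 4.94, SD, n = 4), against 53.9 to 58.1% of CE cells in the same libraries. The sexes overlap. All 16 mitosis genes tested were at least 2-fold below the CE in both sexes, against 4.44% of all genes tested. Their median log2 fold was -1.31 in XX and -1.42 in XY. Between the sexes 0 of 16 were called (adjusted p of 0.368 to 0.944). At shares of 1.71% and 0.331% called over all genes, a list this short can hold no call. With the date blocked Tpx2, a spindle assembly factor, was called higher in XX (log2 -0.38, adjusted p = 0.0404). Their summed level was 855, 1063, 719 and 961 CPM against 2237 to 2438 CPM. Mki67, the proliferation marker, was 19.6, 21, 13.1 and 16.9 CPM against 43.7 to 60.3 CPM. DNA replication genes were lower as well, at 815 to 1066 CPM summed against 1563 to 1799 CPM. Of these 16, 3 in XX and 7 in XY were at least 2-fold lower, against 6.29% and 7.30% of all genes. None was called by sex with or without the date blocked, which the shares over all genes allow for a list this short.

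Of 5 cell cycle inhibitors tested, 2 were called higher in XX and none in XY, against 0.331% and 1.71% of all genes. Cdkn1a, which encodes p21, was 202 and 158 CPM in XX and 74.8 and 76.9 CPM in XY presupporting cells (log2 -1.23 ± 0.17, adjusted p = 0.012), against 22.4 to 43.0 CPM in the CE. Cdkn1c, which encodes p57, was 517 and 587 CPM in XX and 321 and 331 CPM in XY (log2 -0.74 ± 0.12, adjusted p = 0.021), against 195 to 245 CPM. Both were above the CE in either sex. The call between the sexes was lost for Cdkn1c whichever library was left out (log2 -0.65 to -0.83). For Cdkn1a it was kept only without XX replicate 2 (log2 -1.04 to -1.41 over these fits). The fold over the CE was larger in XX for Cdkn1c (log2 -0.53 ± 0.07, adjusted p = 0.000889), whereas the difference of the folds did not pass for Cdkn1a (log2 -0.60 ± 0.17, adjusted p = 0.101). Cdkn1b, which encodes p27 and marks arrested supporting cells, was 28.6 and 26.4 CPM against 19.1 and 19.0 CPM (adjusted p = 0.088, and 0.0129 with the date blocked). Cdkn2c, which encodes p18, was 0.172 and 0.0875 CPM in XX against 0.26 and 0.375 CPM in XY (adjusted p = 0.517), and Cdkn2d, which encodes p19, 22.9 and 17.9 CPM against 20.7 and 15.3 CPM (adjusted p = 0.845). Of the D-type cyclins none was called by sex, and Ccnd1 was 19.3 to 25.9 CPM against 37.5 to 51.4 CPM in the CE.

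**Figure D5:**
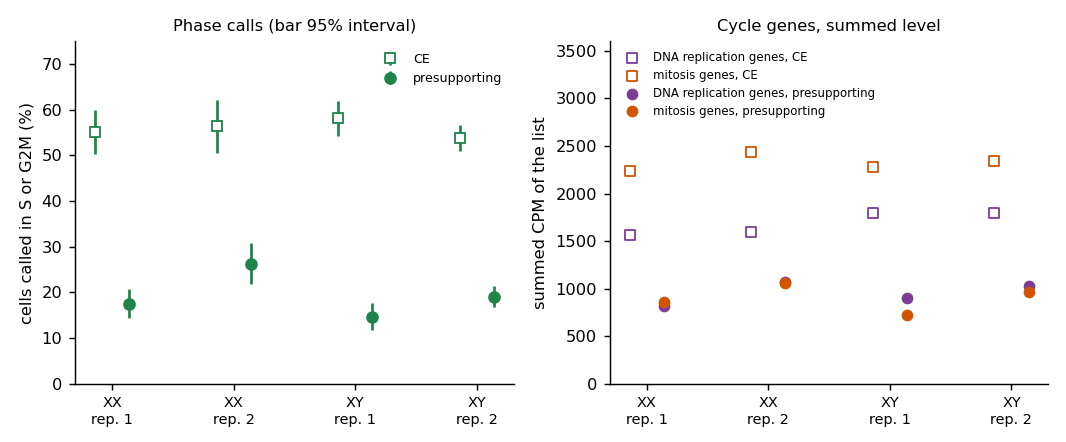
Left, share of cells called in S or G2M in each E11.5 library with 95% exact binomial intervals for CE (open squares) and presupporting cells (filled circles). Right, summed CPM of 16 DNA replication and 16 mitosis genes in the same sums. Presupporting cells lie below the CE in all 4 libraries in both panels, and XX replicate 2 has the highest share among them.

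Markers of other cell types were read beside these results. Steroidogenic genes were above the CE: Cyp11a1, which cuts the side chain of cholesterol, was 48.3, 104, 38.5 and 72.0 CPM against 1.06 to 4.43 CPM, and Star, which carries cholesterol into mitochondria, 52.2, 64.7, 38.0 and 70.1 CPM against 14.5 to 21.9 CPM. Replicate 2 was the higher in both sexes, neither gene was called by sex, and Cyp17a1 was at most 1.05 CPM. Mesenchyme markers (9 of 9 detected) summed to 298 to 454 CPM against 844 to 1078 CPM in the CE. Among them Nr2f1 and Nr2f2, which encode COUP transcription factors, were higher in XX presupporting cells, Nr2f2 at 142 and 130 CPM against 87.2 and 78.9 CPM (adjusted p = 0.0424). Erythroid markers (7 of 7 detected) summed to 506, 79.1, 1060 and 85.3 CPM, high in both replicate 1 libraries, and 548, 78.3, 1166 and 89.2 CPM in the CE. With the date blocked Hba-a1 and Hba-a2 were called higher in XY, and Pdgfrb, Col1a1 and Col1a2 of the mesenchyme list in XX. The part of these cells in the results was not tested. Immune markers summed to 1.98 to 2.59 CPM, endothelial markers to 33.6 to 38.9 CPM, mesonephric tubule markers to 26.1 to 35.9 CPM and germ cell markers to 67.4 to 78.0 CPM, with no call by sex in any of these lists. Of 6 adrenosympathic markers 3 were tested, of which Sox10 was called. None of 10 stress and immediate early genes was called by sex, and with the date blocked Jun (log2 0.44, adjusted p = 0.00451) and the steroidogenic Hsd3b1 (log2 1.81, adjusted p = 0.0162) were called higher in XY. Over all genes 1.71% were called higher in XY and 0.331% in XX, so lists this short can hold no call.

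Presupporting cells made up 14.5%, 16.7%, 11.9% and 21.3% of all cells of their libraries (mean 16.1% ± 3.96, SD, n = 4). XY replicates 1 and 2 were the lowest and the highest, so the sexes overlap. Among CE, presupporting and early SLC cells alone the shares were 53.8% and 49.7% for XX, against 44.1% and 45.1% for XY. The XX shares were above the XY shares, but 2 against 2 libraries cannot fall below p = 0.33 in a two-sided exact permutation test. A share of cells depends on how much mesonephros was taken along with the gonad.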

How the data were processed

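The authors aligned droplet-based single-cell libraries to GRCm38 with Cell Ranger 2.1 (per the submitters' processing notes), with the GFP sequence added and reads of Sry counted apart, and deposited UMI counts per gene and cell for 26397 genes, with a cell table that gives cell type, phase and doublet score. Doublets were scored but not removed by the authors, and their score was not used here. A doublet score was computed anew in each library from simulated doublets. By it, 269 of the 2693 presupporting cells lie among the 5% of highest scores per library. Whether counting used strand is not given in the sources used here. UMI totals came from the matrix, since those of the cell table differ in 53439 cells by up to 705 UMIs. Of the cell table, 9 columns were used and 18 were not.

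For each library, counts were added up over the cells of a type. The 8 sums of presupporting and CE cells entered edgeR 4.0.16 (R 4.3.3, limma 3.58.1) with its default filter on low counts, TMM scaling and quasi-likelihood tests with Benjamini-Hochberg adjustment over the 17226 genes tested. Calls needed an adjusted p under 0.05 and a change of 0.361 on the log2 scale. XX was compared with XY without a block, and the folds over the CE between the sexes with the library as a block. The comparison of XX with XY took its spread from presupporting and CE sums together, also with the date blocked. It treated the sums of one library as independent. E12.5 libraries had their own fit. DESeq2 1.42.0 served as an alternative. Plain CPM are printed and folds come from the fit. Presupporting and CE cells were not tested against each other, since the types were named from these counts.

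The titles give XX and XY libraries the same 2 dates, and sums of one date deviated from their group means together (correlation over genes 0.398 for presupporting and 0.337 for CE sums), as did presupporting and CE sums of one library (0.487 in XX and 0.584 in XY). On simulated counts over 16835 genes, the XX and XY comparison recovered 58% of 100 genes changed by log2 1 and 100% of 100 changed by log2 2, with 2 false calls, and the difference of the folds recovered 28% and 95%, with 3 false calls. The simulated sums were drawn independently, without shared effects of library or date, so the false calls do not speak for such effects. Changed genes were drawn among better counted ones only, so the recovery does not hold for genes with few UMIs. Intervals are 95% exact binomial ones and cover counting error only, as do floors of 3 counts. Python 3.11.15 with numpy 2.4.6, pandas 2.3.3, scipy 1.17.1 and matplotlib 3.10.9 was used for the rest.

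The members and the 26 gene lists were chosen with earlier results of these data known. Named are the 5 markers, members of the lists, the 10 largest fold changes in each direction beyond the lists among called genes whose libraries do not overlap, the same for the difference of the folds, and the 10 largest folds over or under the CE among genes that reach 2-fold with 1 direction in all 4 libraries and 20 CPM in the higher type. Some named genes are not reported here. Gene positions are from GENCODE M21, which placed 294 of 300 named genes, and promoters from RefSeq. The comparison with germ cells and other types is confined to marker checks.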

Additional observations from a re-analysis of the deposited data

Results flagged for a closer look

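Cells with transcripts of the other sex made up 5.76% of presupporting cells in XX replicate 2 and 1.96% in XY replicate 2, and 0 of 577 and 0 of 612 in the replicate 1 libraries.

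The fold of presupporting cells over the CE differed between the sexes, by the test of that difference, for 297 genes with the larger fold in XY and 130 with the larger fold in XX. The differences below are XY minus XX of the log2 fold. Among genes of the Sertoli and FGF lists they were 2.17 for Aard, 3.12 for Amh, 1.73 for Cbln4, 1.85 for Cst9, 1.91 for Etv5, 3.53 for Fgf9, 0.83 for Nedd9, 1.67 for Sox8, 2.41 for Sox9 and 1.16 for Vnn1, and 0.83 for Nr5a1. Sox8 and Vnn1, a Sertoli factor related to Sox9 and a pantetheinase, were called between XY and XX presupporting cells themselves only with the library date blocked.

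On the XX side the differences were -1.32 for Fst, -0.89 for Lef1, -0.79 for Rspo1, -0.95 for Wnt4, -0.79 for Lhx9, -0.53 for Cdkn1c, -0.59 for Nr2f2, -0.66 for Podxl and -0.76 for Krt7, a keratin gene of the CE list. That of Xist was -0.87, but it reversed to 0.41 without cells of the other sex (adjusted p = 0.653) and to 0.69 without XY replicate 2 (adjusted p = 0.635).

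Beyond the lists they were 4.41 for Mt3, 4.02 for Gdnf, 3.66 for Ppargc1a, 3.38 for 2610035D17Rik, 3.27 for Trf, 3.24 for Dusp15, 2.97 for Lrp4, 2.95 for Trim47, 2.88 for Nptx1 and 2.79 for Nkd2. Toward XX they were -6.51 for AC113508.1, which has no UMI in the XX CE, -2.92 for Alpk2, -2.64 for Ccdc68, -2.33 for Isl1, -1.70 for Rnf152, -1.57 for Gm43848, -1.52 for Slc4a8, -1.40 for Gbp2, -1.39 for Utf1 and -1.39 for Hist2h2aa1.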

How the results depend on the processing

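Counts of genes called between the sexes rest on 2 libraries each. Leaving out 1 library at a time, which leaves its sex with a single library assumed to vary like those of the other sex, gave 37 to 155 genes higher in XY and 1 to 38 higher in XX, against 295 and 57, and 294 to 460 and 198 to 361 genes for the folds larger in XY and XX, against 297 and 130. With the library date as a replicate block, the pairing that the titles give, 872 and 462 genes were called between the sexes (917 and 534 without cells of the other sex as well, chosen after seeing the data), and 503 and 247 of the genes then called were higher in Sertoli and in pregranulosa cells at E12.5. With no replicate block, the difference of the folds called 3 and 0 genes, and all 41 named genes lost their call. DESeq2 called 86 genes higher in XX, 68 of them higher in pregranulosa cells, and 165 and 35 for the folds. The 4 presupporting sums alone called 198 genes higher in XY and 16 higher in XX, and 41 of 54 named genes kept the call. Without a filter on low counts, 250 genes had the larger fold in XX, and 1679 (XX) and 2113 (XY) were at least 2-fold below the CE. Cells in G1 alone gave 201 genes with the larger fold in XX. The difference for Xist (-0.87, and -0.93 without XY replicate 1) reversed to 0.41 without cells of the other sex (adjusted p = 0.653, chosen after seeing the data) and to 0.69 without XY replicate 2 (adjusted p = 0.635). The cause of these shifts was not tested.

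Of 54 named genes called between the sexes, 47 kept the call with DESeq2, 53 without cells of the other sex and 11 to 34 without 1 library. The overlap with E12.5 ranged from 210 to 249 and 41 to 48 genes without 1 E12.5 library. With 1 library of the sex left out, genes at least 2-fold above the CE ranged from 1701 to 1735 in XX and 1581 to 1893 in XY, and those below it from 1107 to 1260 and 1168 to 1439. Over all alternatives the ranges were 1329 (equal numbers of cells) to 2516 (no filter) and 1547 to 2675 above, and 886 to 1679 and 1080 to 2113 below. The share of presupporting cells ranged from 14.4 to 17.5% with 1 library left out and was 48.2% among CE, presupporting and early SLC cells. Cells with Sox9 and Wnt4 ranged from 44.6 to 50.3% with 1 library left out and were 12.7% after thinning to 5000 UMIs and 24.9% after thinning to 10000. Cells in S or G2M ranged from 17.0 to 20.9% with 1 library left out, and were 15.3% without the highest doublet scores and 22.9% when phases were scored anew on cells thinned to 5000 UMIs. Genes under about 1 CPM rest on few UMIs, and their folds are imprecise.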
